A study of Homo sapiens with 4 samples.

Results

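Rab GTPases are small proteins that mark the membranes of the cell and direct vesicles between them. The family was taken by name, as the probe sets whose single gene symbol in the array's annotation is RAB, 1 or 2 digits and at most 1 further letter. This gave 63 probe sets for 60 genes, of 32321 probe sets in all, of which 19158 carry 1 symbol and stand for 18404 genes. The rule uses names and no measured value, and the family and the lists of its regulators were chosen with earlier results of these arrays known. A further 5 probe sets carry several symbols of which one or more is a Rab gene (RAB4B, RAB6C, RAB34, and second probe sets of RAB6A and RAB43) and were left out. The gene RAB1C is a pseudogene in the RefSeq table, so its probe set may read RAB1 transcripts. The samples were 4 cultures of U87MG, an established human glioblastoma cell line, each hybridized to a GeneChip Human Gene 1.0 ST array. Of these, 2 were transfected with a control siRNA and 2 with a siRNA against CASP2, the gene of caspase-2, a protease of apoptosis. The labels name Dharmacon as the supplier of the oligos, and the study's methods list a mutated form of the silencing oligo as the control from that supplier. No time of harvest is given in the sources used here.

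A Rab protein is switched on when an exchange factor (GEF) loads it with GTP and off when a GTPase-activating protein (GAP) makes it hydrolyse that GTP. Lipid tails, added by the geranylgeranyl transferase with the help of Rab escort proteins, hold it in the membrane, and the dissociation inhibitors (GDI) carry it back through the cytosol. When bound to GTP it recruits effectors, among them tethers, motor adaptors and lipid kinases. Each membrane has its own Rabs, such as RAB1 between ER and Golgi, RAB5 on early endosomes, RAB11 on recycling endosomes, RAB7 on late endosomes and lysosomes, and RAB3 and RAB27 on secretory vesicles. In this study of cholesterol genes they concern the route by which lipoproteins reach the lysosome, and RAB18, which is found on lipid droplets.

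Promoter sequences from RefSeq (GRCh38.p14, 250 bases before to 50 after the start of transcription) were matched by symbol for 46 of the 60 genes, with 65 windows because some genes have several starts. The E-box CACGTG is the core of the sites bound by TFEB, the regulator of lysosomal genes, and it reads the same on either strand, so that 1 search covered both. It was found in 6 Rab genes (RAB4A, RAB5A, RAB21, RAB24, RAB29 and RAB31), or 9.23% of the Rab windows beside 7.26% of all 35116 windows. Of these windows, 3 are shown, each 300 bases long and read 5′ to 3′ on the strand of the gene, because they belong to genes of the route from uptake (RAB5A, RAB21) to autophagy (RAB24). Capitals mark the E-box in RAB5A (chr3:19946847-19947146, plus strand), RAB21 (chr12:71754613-71754912, plus strand) and RAB24 (chr5:177303670-177303969, minus strand).
RAB5A: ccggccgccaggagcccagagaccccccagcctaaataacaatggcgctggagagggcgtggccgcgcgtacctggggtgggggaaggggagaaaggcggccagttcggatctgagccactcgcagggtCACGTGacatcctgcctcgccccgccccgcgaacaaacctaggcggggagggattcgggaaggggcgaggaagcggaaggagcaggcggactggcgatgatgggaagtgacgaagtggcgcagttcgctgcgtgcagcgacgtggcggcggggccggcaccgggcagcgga
RAB21: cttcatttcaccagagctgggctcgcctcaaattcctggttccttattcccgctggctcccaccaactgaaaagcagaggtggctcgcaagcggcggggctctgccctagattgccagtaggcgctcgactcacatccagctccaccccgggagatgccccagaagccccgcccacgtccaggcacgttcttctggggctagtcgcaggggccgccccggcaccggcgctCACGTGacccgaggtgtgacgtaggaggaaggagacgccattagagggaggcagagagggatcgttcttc
RAB24: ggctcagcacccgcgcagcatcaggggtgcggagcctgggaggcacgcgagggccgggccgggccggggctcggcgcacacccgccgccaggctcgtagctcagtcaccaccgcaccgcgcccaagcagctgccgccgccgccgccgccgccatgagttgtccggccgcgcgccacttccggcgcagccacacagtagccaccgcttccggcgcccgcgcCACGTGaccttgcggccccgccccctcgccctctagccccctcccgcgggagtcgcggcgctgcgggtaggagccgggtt
The E-box begins 121 bases before the start in RAB5A, 20 in RAB21 and 30 in RAB24. A match is a description of the letters only. The log2 differences of the 6 genes, CASP2 siRNA minus control siRNA, ran from -0.10 to 0.025, with 3 above 0 and 3 below.

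The deposited values are log2 values by Robust Multi-Array Average (RMA), 1 per probe set and array. Array medians lay between 6.18 and 6.28, and the control arrays correlated with r = 0.997 and the CASP2 siRNA arrays with r = 0.991. CASP2 itself was at 10.74 and 10.69 on the control arrays and at 8.79 and 8.52 on the CASP2 siRNA arrays, a log2 difference of -2.06 (95% confidence interval -2.40 to -1.72), lower on both silenced arrays as their labels state. Even CASP2, with an unadjusted limma p of 4.02e-05, had an adjusted p of 0.9999, so no adjusted p here bears on whether a gene was stable. Of the 7 glial and glioma markers examined, vimentin (VIM) and CD44 lay above the upper quartile of all probe sets and GFAP and nestin (NES) between the median and the upper quartile, while SOX2 and OLIG2 lay below the median and S100B below the lower quartile. Of 11 measured markers of other cell types, 9 lay below the median, and the neuronal genes SNAP25 and SYT1 lay above it. The changes of these 11 ran from -0.11 to 0.15, and none had an unadjusted limma p under 0.05. In bulk RNA, a lower level in every cell and fewer cells with the transcript cannot be told apart.

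Of the 63 Rab probe sets, 31 lay above the upper quartile of all probe sets in U87MG cells and 49 above the median, beside 31.0% and 62.1% of probe sets with 1 symbol, and in the limma fit of all 4 arrays none had an unadjusted p under 0.05 after caspase-2 silencing. With each gene taken at its brightest probe set, 30 of the 60 genes lay above the upper quartile of all probe sets, 17 between the median and the upper quartile, 9 between the lower quartile and the median and 4 below the lower quartile. The log2 difference ran from -0.24 for RAB1A to 0.19 for RAB41, with a median of 0.010, and 33 genes lay above 0 and 27 below (background 49.7% above 0 among probe sets with 1 symbol). Of the 63 probe sets, 0 passed an adjusted limma p of 0.05 (background 0%, CASP2 included), 0 an unadjusted p of 0.05 (background 2.2%), and 0 the study's own rule of more than 1.5-fold with an unadjusted p under 0.05 (background 0.235%). The methods' t-test, as rebuilt here from its description, also gave 0 at an unadjusted p of 0.05 (background 0.183%). An exact permutation test of single genes cannot go below 0.333 with 2 arrays a group.

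The confidence intervals give a range for each change, as far as the spread of these 4 arrays shows it. They use a spread shared by both groups, although the silenced arrays varied more. An increase or decrease of 1.5-fold lay outside the 95% confidence interval for 59 of the 63 probe sets, or 93.7%, against 82.8% of all probe sets with 1 symbol, and it held for all 31 Rab probe sets above the upper quartile, against 95.2% of probe sets with 1 symbol above it. With the interval of the methods' t-test this held for 31 of the 63, and the count also fell without either control array. The share of all probe sets was not computed for those fits, so these counts say nothing particular to Rab genes. The 4 exceptions in the fit of all arrays were RAB17, RAB39A, the dimmer probe set of RAB7A and the brighter one of RAB44, whose silenced arrays stood far from each other. The silenced arrays both exceeded the controls for 9 genes and both fell short of them for 8, together 17 of 63 probe sets (background 30.9%, of which 14.6% higher and 16.3% lower).

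**Figure D1:**
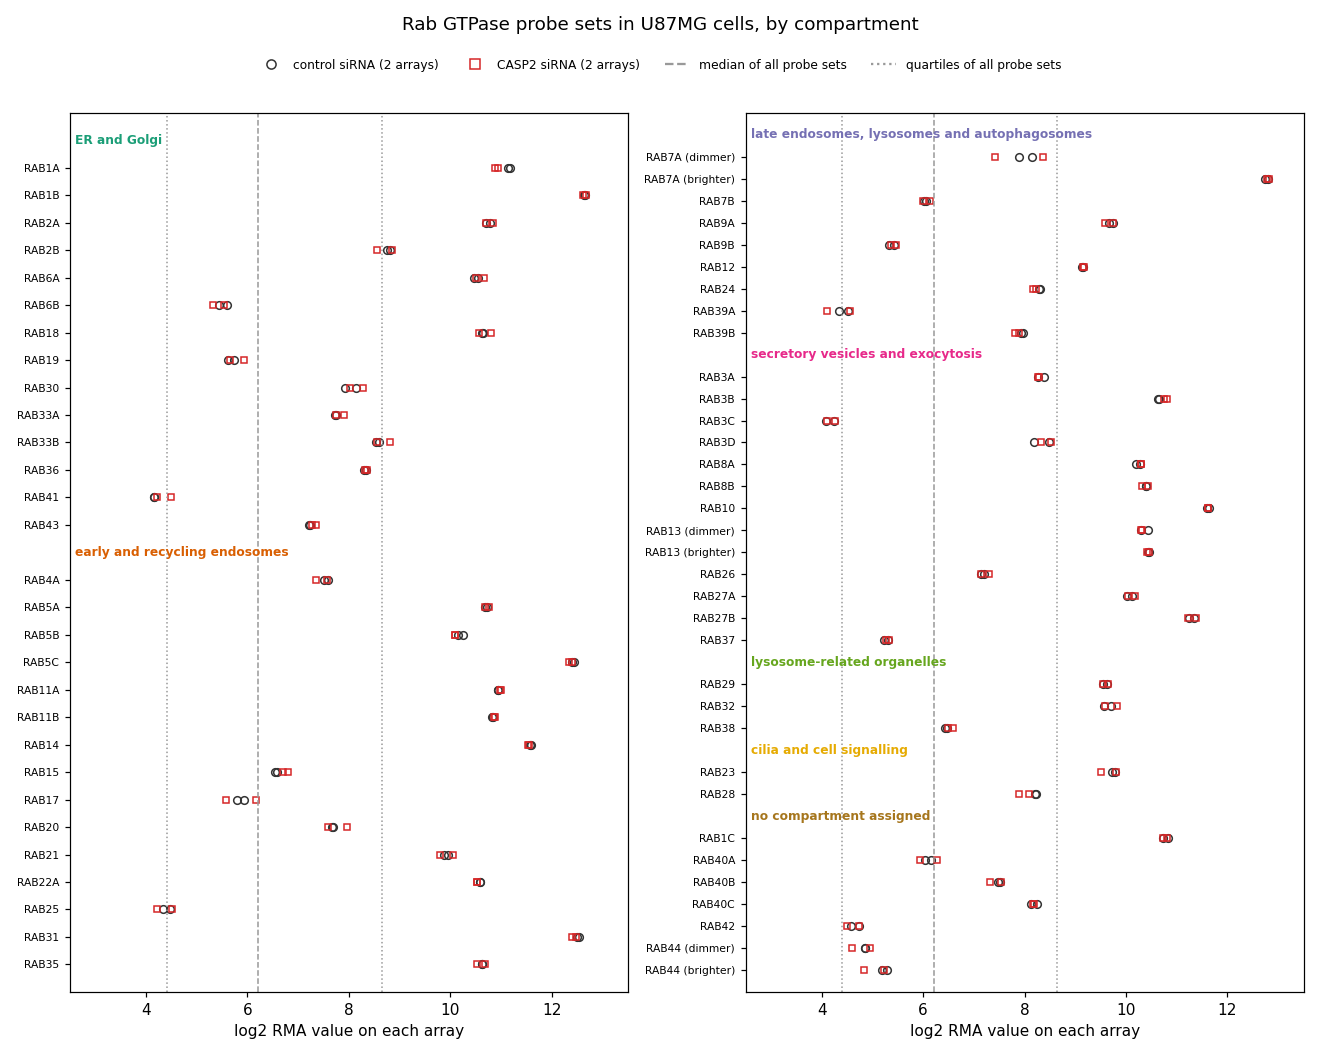
Log2 RMA values (x axis) of the 63 Rab probe sets (y axis), by compartment; circles are the 2 control siRNA arrays, squares the 2 CASP2 siRNA arrays, the dashed line is the median of all probe sets and the dotted lines their quartiles. Of the 60 genes, 30 lie right of the upper quartile and 4 left of the lower quartile; probe sets differ in brightness for reasons other than RNA amount, so positions of different genes are not an order of their levels.

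**Figure D2:**
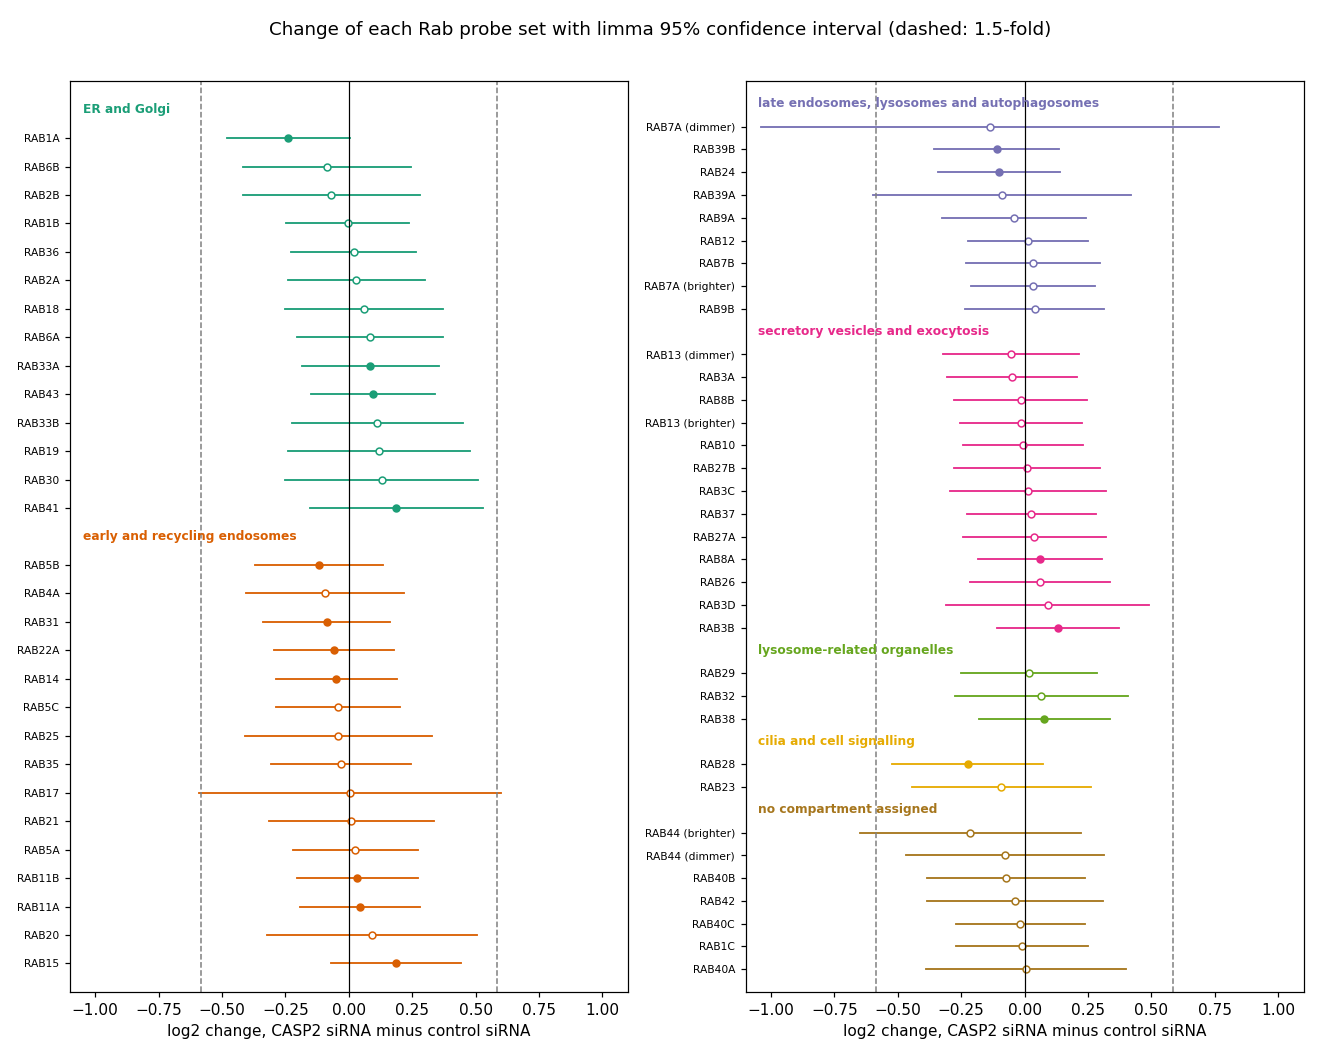
Log2 difference of each Rab probe set (x axis, silenced minus control) with the limma 95% confidence interval as a bar, by compartment (y axis); filled points are probe sets whose groups do not overlap, and dashed lines mark a 1.5-fold change. Every interval holds 0, and 59 of 63 lie between the dashed lines.

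The Rabs of the ER and Golgi carry cargo from the ER to the Golgi stack, within it and back. Of 14 measured, 10 had a difference above 0 and the median was 0.071, or 0.019 to 0.067 with each array left out in turn. RAB1A, which directs tethering of ER-derived vesicles to the Golgi, had the largest difference of the family. Its log2 values were 11.14 and 11.17 on the control arrays and 10.94 and 10.89 on the silenced arrays. The groups did not overlap, and the difference of -0.24 (SE 0.091, 95% confidence interval -0.48 to 0.0042, limma) amounted to 1.18-fold, with an unadjusted p of 0.053 and an adjusted p of 0.9999. Left-out arrays moved it between -0.26 and -0.21. It was the only Rab probe set under an unadjusted p of 0.05 in limma with trend and robust options (p of 0.0054, background 3.15%), after a further quantile normalization (p of 0.037, background 3.02%) and without dim probe sets (p of 0.049, background 2.4%). Its unadjusted p was 0.18 in the methods' t-test, 0.11 in limma with a replicate block and 0.089 in limma after median centring. No adjusted p passed in any of these fits.

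RAB1B, the close relative of RAB1A with the same route, was at 12.66 and 12.63 on the control arrays and 12.62 and 12.67 on the silenced arrays. Its difference was -0.0049 (interval -0.25 to 0.24), and that of the RAB1C pseudogene -0.0089 (-0.27 to 0.25), both near 0 with overlapping groups. Whether RAB1A differed in its response from either was not tested. RAB2A and RAB2B, of Golgi structure and retrograde traffic, differed by 0.030 and -0.068 between the groups, and RAB6A, of transport from the Golgi to the ER, by 0.083 (-0.20 to 0.37). RAB6B, the form of RAB6 known from neurons, lay below the median of all probe sets on every array, with a difference of -0.087.

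RAB18, found on the ER and on lipid droplets, was at 10.64 and 10.62 on the control arrays. The silenced arrays lay on either side of these, at 10.80 and 10.57, and the difference of 0.058 (-0.25 to 0.37) turned to -0.056 without CASP2 siRNA replicate 1. Among the other Golgi Rabs, RAB33A was at 7.74 on both control arrays and at 7.75 and 7.90 on the silenced arrays (difference 0.085, interval -0.19 to 0.36), and RAB43 at 7.22 and 7.23 and then at 7.28 and 7.36 (0.097, -0.15 to 0.34). Both had silenced arrays above the controls by a margin that was small beside the interval. RAB41 had the largest positive difference of the family, at a low signal. It was at 4.16 and 4.17 on the control arrays and at 4.21 and 4.49 on the silenced arrays, below the lower quartile of all probe sets by its mean, with a difference of 0.19 (-0.15 to 0.53). Replicate 2 was the higher silenced array, and without it the difference was 0.050. RAB19, RAB30, RAB33B and RAB36 had differences of 0.12, 0.13, 0.11 and 0.018, each with overlapping groups.

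The Rabs of early and recycling endosomes govern the first steps after uptake at the plasma membrane and the return of receptors to it. Of 15 measured, 7 had a difference above 0 and 8 below, with a median of -0.031 that ran from -0.062 to 0.0099 with each array left out, and 10 lay above the upper quartile of all probe sets. RAB5A, RAB5B and RAB5C, which drive fusion of early endosomes, were all bright. RAB5A was at 10.68 and 10.72 on the control arrays and 10.76 and 10.69 on the silenced arrays, a difference of 0.025 (-0.22 to 0.27). RAB5B was at 10.16 and 10.26 and then at 10.09 on both silenced arrays, a difference of -0.12 (-0.37 to 0.13), and RAB5C differed by -0.044 (-0.29 to 0.20). Silenced arrays lay below the controls for RAB5B and overlapped them for the other RAB5 genes.

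RAB11A and RAB11B, the Rabs of the recycling endosome, were among the most tightly measured. RAB11A was at 10.93 and 10.95 on the control arrays and at 10.99 and 10.97 on the silenced arrays. Its groups did not overlap, yet the difference was 0.044 (-0.19 to 0.28), and that of RAB11B 0.033 (-0.20 to 0.27). RAB25, the epithelial member of the RAB11 group, lay below the lower quartile of all probe sets, with a difference of -0.043. RAB15, of recycling endosomes, had the second largest positive difference, from 6.55 and 6.58 to 6.80 and 6.70 (0.18, -0.072 to 0.44), which kept its sign with each array left out (0.13 to 0.24). RAB31, which links the trans-Golgi network and endosomes, went from 12.55 and 12.50 to 12.48 and 12.40 (-0.087, -0.34 to 0.16).

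RAB14 and RAB22A, of sorting between endosomes and the Golgi, also had both silenced arrays below both controls, with differences of -0.049 and -0.058. RAB35, of fast recycling, was at 10.62 and 10.63 on the control arrays and at 10.68 and 10.52 on the silenced arrays. These lay on opposite sides of the controls, and the difference of -0.031 (-0.31 to 0.25) became 0.050 without CASP2 siRNA replicate 2. RAB4A, RAB20 and RAB21 differed by -0.094, 0.091 and 0.0099 with overlapping groups. RAB17, a Rab of polarized epithelia, was at 5.92 and 5.80 on the control arrays and at 5.57 and 6.17 on the silenced arrays. Its difference of 0.0052 had an interval of -0.59 to 0.60, which holds a change of 1.5-fold in either direction.

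Late endosomes, lysosomes and autophagosomes are the compartment in which lipoprotein cholesteryl esters are hydrolysed. Of 8 measured Rab genes of this route, 4 lay above 0 and 4 below, with a median of -0.015, or -0.014 to 0.0066 with each array left out. RAB7A, the main Rab of late endosomes and lysosomes, has a pair of probe sets. The brighter one was at 12.80 and 12.74 on the control arrays and at 12.82 and 12.78 on the silenced arrays, a difference of 0.034 (-0.21 to 0.28) that stayed between 0.0046 and 0.064 with each array left out. The dimmer one was at 7.89 and 8.14 and then at 8.35 and 7.41, so that the CASP2 siRNA arrays stood apart from each other on opposite sides of the controls. Its difference of -0.14 (-1.04 to 0.77) became -0.61 without CASP2 siRNA replicate 1, which passed the study's rule in that fit, and 0.34 without replicate 2.

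RAB9A, of return from late endosomes to the Golgi, was at 9.74 and 9.67 on the control arrays and at 9.74 and 9.58 on the silenced arrays (-0.042, -0.33 to 0.24). RAB24, linked to autophagy, had silenced arrays below the controls, at 8.17 and 8.22 against 8.29 and 8.30 (-0.10, -0.34 to 0.14). RAB39B, whose loss in humans affects the brain, did too, at 7.81 and 7.88 against 7.94 and 7.97 (-0.11, -0.36 to 0.14). RAB12 stayed within 9.14 to 9.17 on all arrays (difference 0.012). RAB7B and RAB9B, with signals below the median of all probe sets, differed by 0.033 and 0.039, and RAB39A, below the lower quartile by its mean, by -0.090 (-0.60 to 0.42).

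Rabs of secretory vesicles and exocytosis bring cargo to the plasma membrane. Of 12 measured genes, 8 had a difference above 0, the median was 0.020 (-0.0041 to 0.051 with each array left out), and the differences ran from -0.049 for RAB3A to 0.13 for RAB3B. RAB3B, of regulated exocytosis, was at 10.64 and 10.65 on the control arrays and at 10.75 and 10.80 on the silenced arrays. Both silenced arrays lay above the controls, and the difference of 0.13 (-0.11 to 0.37) ranged from 0.11 to 0.16 with each array left out. Its probe set lay above the upper quartile of all probe sets. RAB3A and RAB3D lay between the median and the upper quartile of all probe sets and RAB3C below the lower quartile, with differences of -0.049, 0.091 and 0.014.

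RAB27A and RAB27B, which act in the release of secretory granules and exosomes, were both above the upper quartile. RAB27A was at 10.02 and 10.11 on the control arrays and at 10.18 and 10.03 on the silenced arrays (0.039, -0.24 to 0.32), and RAB27B at 11.34 and 11.25 and then at 11.39 and 11.23 (0.010, -0.28 to 0.30). In both, the groups overlapped and the sign turned when CASP2 siRNA replicate 1 was left out. RAB8A, of transport from the Golgi to the plasma membrane and the cilium, went from 10.20 and 10.27 to 10.29 on both silenced arrays (0.060, -0.18 to 0.30). RAB8B and RAB10, which act on the same route, differed by -0.016 and -0.0069, and RAB10 kept within 11.60 to 11.64 on all 4 arrays. RAB13, of cell junctions, has a pair of bright probe sets with differences of -0.015 and -0.055. RAB26 and RAB37, of secretory granules, differed by 0.061 and 0.026.

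RAB29, RAB32 and RAB38 were grouped here under lysosome-related organelles, with differences of 0.018, 0.065 and 0.078. For RAB38 the control arrays were at 6.44 and 6.48 and the silenced arrays at 6.48 and 6.59, and the groups were separated by less than the second decimal. RAB23, an inhibitor of Hedgehog signalling, and RAB28, found at the cilium, both had differences below 0. RAB28 had the second largest negative difference of the family, from 8.20 and 8.22 on the control arrays to 8.09 and 7.88 on the silenced arrays (-0.22, SE 0.11, interval -0.52 to 0.072, with an unadjusted limma p of 0.11). The groups did not overlap, but the difference was -0.12 without CASP2 siRNA replicate 2 and -0.33 without replicate 1. No compartment was assigned to RAB40A, RAB40B and RAB40C, which are subunits of ubiquitin ligases, or to RAB42, RAB44 and RAB1C. Their differences ran from -0.21 to 0.0056, the lowest that of the brighter RAB44 probe set (interval -0.65 to 0.22), whose other probe set differed by -0.077. In the 3 genes with more than 1 probe set, RAB7A, RAB13 and RAB44, the differences of the probe sets lay apart by 0.17, 0.040 and 0.14.

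**Figure D3:**
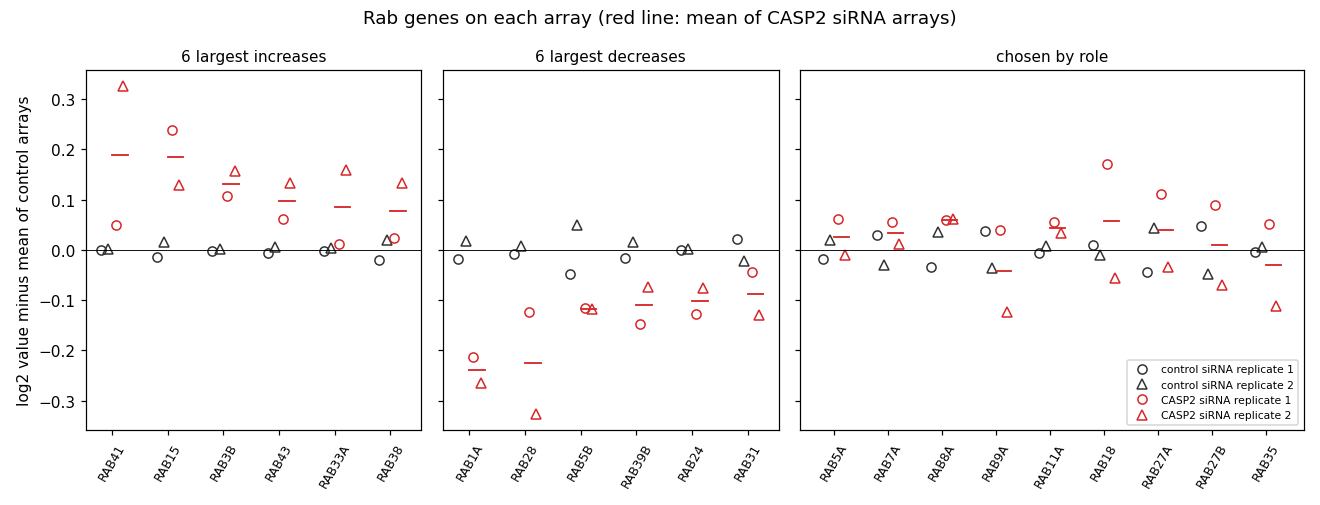
Deviation of each array from the control mean on the log2 scale (y axis) for the 6 largest positive and negative differences among Rab genes whose groups did not overlap, and for 9 Rab genes chosen by role (x axis); black symbols are control siRNA, red symbols CASP2 siRNA, circles replicate 1, triangles replicate 2, and red lines the mean of the silenced arrays. RAB1A lies below the control mean on both silenced arrays, and RAB41 and RAB28 lie farther from it on replicate 2 than on replicate 1. The silenced arrays of RAB5A, RAB9A, RAB18, RAB27A, RAB27B and RAB35 lie on opposite sides of the control mean.

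The silenced arrays disagreed more with each other than the control arrays did. The median SD between arrays over the 63 Rab probe sets was 0.092 for the CASP2 siRNA and 0.042 for the control siRNA, and it was larger for the CASP2 siRNA in 49 of them, or 77.8% beside 73.3% of probe sets with 1 symbol. The silenced arrays lay on opposite sides of the control mean in 38 of the 63, or 60.3% beside 52%. Among the 31 bright Rab probe sets, above the upper quartile, replicate 1 was the higher silenced array in 24 (77.4%), beside 76.3% of all bright probe sets with 1 symbol. The part of this difference between arrays in the results of single Rab genes was not tested. Without CASP2 siRNA replicate 1, 5 Rab probe sets had an unadjusted limma p under 0.05 (RAB1A, RAB7A, RAB17, RAB28 and RAB41, background 19%), and without replicate 2 there were 4 (both of RAB44, RAB17 and RAB20, background 8.12%). RAB17 was higher in the first fit (0.31) and lower in the second (-0.29).

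The proteins that act on Rabs were examined by lists chosen by role, each gene by its brightest probe set. For the prenylation and GDI list, 0 of 9 measured genes had an unadjusted limma p under 0.05 (background 2.2%), and the median difference was 0.017. GDI2, a dissociation inhibitor, differed by 0.037 (-0.21 to 0.28). RABGGTA and RABGGTB, the subunits of the Rab geranylgeranyl transferase, differed by -0.11 and 0.024, and RABAC1, which helps to free Rabs from GDI, by -0.064. CHML, a Rab escort protein, had the smallest unadjusted limma p of the list (p of 0.19), with a difference of 0.18 (-0.13 to 0.49). Among the GAPs, 0 of 32 had an unadjusted p under 0.05, with a median of 0.012. The smallest p-values belonged to TBC1D2B (difference -0.32, -0.71 to 0.073), TBC1D10B (difference -0.23, -0.52 to 0.059) and TBC1D20, a GAP for RAB1 (difference 0.15, -0.094 to 0.40).

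Of 34 GEFs, 1 had an unadjusted p under 0.05 and a higher value (background 1.08%) and 1 a lower value (background 1.12%), and the median was -0.0039. DENND1B, an exchange factor for RAB35, was at 7.55 and 7.44 on the control arrays and at 7.85 and 7.77 on the silenced arrays. The groups did not overlap (difference 0.31, 0.044 to 0.58, unadjusted limma p of 0.031), but those of its other probe set did, with a difference of 0.17 (-0.27 to 0.61). Without control siRNA replicate 1, control siRNA replicate 2 or CASP2 siRNA replicate 1 the p of DENND1B was 0.11, 0.23 and 0.058, and the methods' t-test gave 0.12. DENND6A, an exchange factor for RAB14, fell from 7.79 and 7.58 to 7.34 and 6.83 (-0.60, -1.15 to -0.056, unadjusted limma p of 0.037), 1.52-fold lower and past the study's rule. The difference was -0.35 without CASP2 siRNA replicate 2 (p of 0.057), -0.86 without replicate 1, -0.50 without control siRNA replicate 1 (p of 0.15) and -0.71 without control siRNA replicate 2 (p of 0.065), and the methods' t-test gave a p of 0.16. The adjusted p of both genes was 0.9999. RGP1, part of an exchange factor for RAB6, differed by -0.18 (-0.44 to 0.083). The Rabs on which they act differed by -0.031 (RAB35), -0.049 (RAB14) and 0.083 (RAB6A).

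Of 54 effectors, 1 had an unadjusted p under 0.05 and a lower value (background 1.12%), and 37 had a difference below 0 (50.3% of probe sets with 1 symbol did), with a median of -0.026 beside -0.00076 for all probe sets with 1 symbol. FYCO1, a RAB7 effector that links late endosomes and autophagosomes to kinesin, was at 7.89 and 8.13 on the control arrays and at 7.41 and 7.19 on the silenced arrays. Both silenced arrays lay well below the controls, and the difference of -0.70 (SE 0.14, interval -1.08 to -0.33, unadjusted limma p of 0.0053) was 1.63-fold. With each array left out it ran from -0.82 to -0.59, and the methods' t-test gave a p of 0.048. Its adjusted p was 0.9999. FYCO1 and DENND6A, the latter under an older symbol, are both on the study's own list of lower genes, which was chosen on these arrays, so their values here are not independent evidence. Other effectors of RAB7 had intervals that held 0. Their differences were -0.11 for PLEKHM1, -0.043 for VPS39, -0.051 for VPS41, 0.017 for OSBPL1A and -8.3e-06 for RILP (interval of RILP -0.27 to 0.27). RAB11FIP5, an effector of RAB11, was at -0.21 (-0.45 to 0.023) and EXOC6, the exocyst subunit that binds RAB11, at 0.21 (-0.033 to 0.45).

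**Figure D4:**
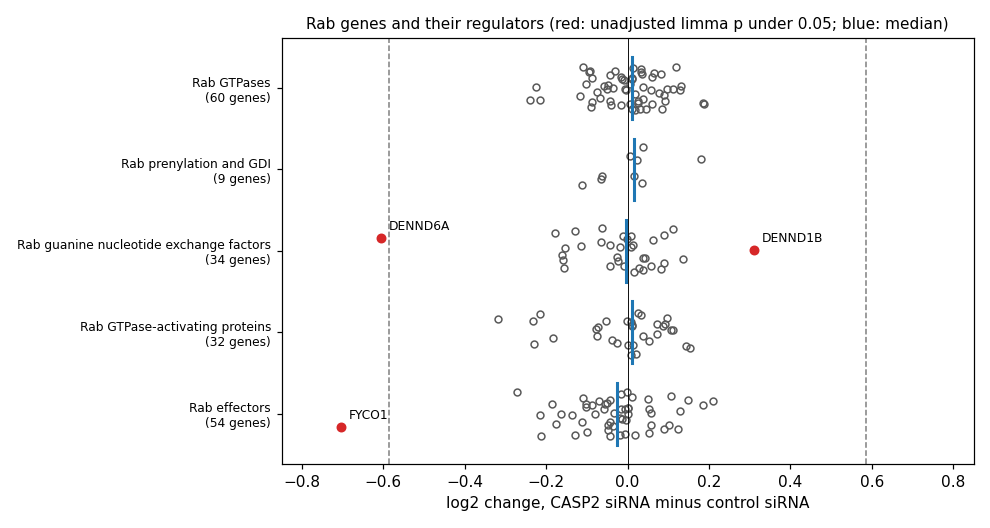
Log2 difference (x axis, silenced minus control) of the 60 Rab genes and of 4 lists of genes that act on Rabs (y axis), each gene by its brightest probe set; red points have an unadjusted limma p under 0.05, blue lines are medians and dashed lines mark a 1.5-fold change. FYCO1 (-0.70) and DENND6A (-0.60) lie past the left line, DENND1B lies at 0.31, and no Rab gene is farther from 0 than 0.24.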

How the data were processed

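Total RNA of 4 U87MG cultures, 2 with a control siRNA and 2 with a CASP2 siRNA, was hybridized to Affymetrix arrays. The authors ran RMA (named without a version in the submitters' processing notes) and deposited its log2 values, 1 for each probe set on each array. RMA equalizes probe distributions between arrays and compresses folds near background. Groups were taken from the sample titles, which number biological replicates. Whether the cultures were independent is not stated further, so p-values reflect only how these arrays vary. The number of arrays limits the precision: an exact two-sided permutation test of one gene cannot give a p below 0.333. No column was left unmapped.

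All 32321 probe sets were fitted with limma 3.58.1 in R 4.3.3 (lmFit, eBayes), two-sided, adjusted by Benjamini-Hochberg over all. No filter on low values was applied, so all 63 members were tested. Symbols were updated by gene ID through the RefSeq table (GRCh38.p14), for 63 of 63 members. The limma fit and the methods' t-test were also run on simulated arrays with a spread shared by both groups. The real silenced arrays varied more than the controls, so the simulation does not show how the fits behave there. Members and lists were chosen with earlier results of these data known. Named genes were the 6 largest increases and decreases whose groups did not overlap, 9 Rabs chosen by role, genes whose probe sets differed by over 0.4 (none did) and the 3 smallest p-values of each list. Further genes, with the RAB7 effectors, were named after their values were seen. The main fit did not pair arrays by replicate number. The deviations of equally numbered arrays correlated with r = 0.020, which cannot show whether those cultures were handled together, and the labels do not say. Alternatives were the methods' t-test, rebuilt from the study's wording (pooled standard deviation raised to its median), whose exact form may differ from the study's. Others were eBayes with trend and robust options, quantile normalization, median centring, dropping dim probe sets, a replicate block and linear means. All probe sets of a gene were also used, and each array was left out, where a lone array is assumed to vary like the other group.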

Additional observations from a re-analysis of the deposited data

How the results depend on the processing

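No Rab probe set and no other probe set passed an adjusted p of 0.05 under any alternative with a test. The count of Rab probe sets at an unadjusted p under 0.05, 0 in limma, became 1 with trend and robust options, with quantile normalization and without dim probe sets, each time RAB1A. Counts with arrays left out, where a group holds a lone array, are given above beside their backgrounds. The count past the rule of the study was 0 in every fit of all 4 arrays. The count of intervals inside a 1.5-fold change was 31 with the methods' t-test and 27 to 60 with arrays left out. Over all probe sets the thresholds gave 107 higher and 117 lower, 35 and 37 with the methods' t-test, and 118 to 414 and 157 to 592 with arrays left out. At an unadjusted p under 0.05 the effectors numbered 3 with trend and robust options and 1 to 5 with arrays left out, the GAPs 0 to 4 and the prenylation list 0 to 1. The GEFs numbered 0 of 34 with the methods' t-test (background 0.183%) and 1 with trend and robust options (3.15%). They also numbered 1 with median centring (1.44%) and 1 with the replicate block (1.58%). The count of each list moved in some fits with arrays left out, and the background moved as well. With the replicate block, 0 Rab probe sets passed (background 1.58%), and the labels give equally numbered arrays only a shared number. With arrays left out, medians ran from -0.28 to -0.036 for the cilia genes, from -0.040 to 0.098 for the lysosome-related genes and from -0.16 to 0.031 for genes with no compartment, and those of the early, late and secretory groups changed sign. The cause of these shifts was not tested. The signs of RAB5A, RAB9A, RAB18, RAB27A, RAB27B and RAB35, with no unadjusted p under 0.05 in any alternative, turned in at least 1 of them, as did that of the dimmer RAB7A probe set, which passed the rule of the study without CASP2 siRNA replicate 1. Dim probe sets such as RAB41 and RAB3C give no firm fold, since RMA compresses values near background.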
